A study of Mus musculus with 28 samples.

Results

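The genes examined here copy the genome before division and separate the copies in mitosis. They are 50 named genes, 24 of DNA replication and 26 of mitosis, out of 19057 genes named on the array, and they were taken by symbol from the table that pairs probes with genes, not by their values. Of these, 48 had a probe, 103 probes in all, and 42 had a probe detected often enough to be tested, 23 replication genes and 19 mitotic genes. No probe was named here for Ccnb1 or Mki67. Probes for Pola1, Ccnb2, Bub1, Cenpe and Nuf2 were detected on 0 of 28 arrays and the probe for Kif20a on 2, so these 6 genes have no test.

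The arrays profiled Xen-eyfp cells, a mouse line of extraembryonic endoderm stem cells, the cultured counterpart of the endoderm that lines the yolk sac. All groups were sampled at 96 h. The 6 groups were 50 ng/ml recombinant Nodal with SB431542 (3 arrays), 100 ng/ml recombinant Cripto with SB431542 (5 arrays), SB431542 alone (5), 50 ng/ml Nodal (5), 100 ng/ml Cripto (5) and Media alone (5). SB431542 is an inhibitor of the kinase of the receptor Alk4, and its dose is not given in the labels. Nodal is a ligand of the transforming growth factor beta family that signals through Alk4, and Cripto is a co-receptor for it of the EGF-CFC family, given here as a soluble protein. Nothing in the labels says that the arrays of a group came from separate cultures of this line, and that spread, which the p-values rest on, may be technical.

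DNA replication begins with licensing, in which the origin recognition complex, Cdc6 and Cdt1 load the ring-shaped Mcm2-7 helicase onto chromatin. Helicase activation, deoxynucleotide supply and the polymerases, clamp and ligase of the fork then follow in S phase. Mitosis is driven by Cdk1 with its cyclins and by the Aurora and Polo kinases, while kinetochore and checkpoint proteins hold anaphase back until every chromosome is attached. Transcripts of the first kind are commonly driven by E2F factors in late G1 and those of the second by CHR and CCAAT elements in G2 and mitosis.

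Promoter sequence separated the lists. RefSeq windows on GRCm38.p6, which run 250 bases before to 50 bases after a gene's start, were found for 42 of the 50 genes, 47 windows in all. Aurkb, Ccna2, Kif20a, Tpx2, Gins1, Gins2, Mcm4 and Pole had none. Searched on both strands, the E2F motif (TTTCCCGC, TTTCGCGC, TTTGCCGC or TTTGGCGC) was present in 10 of 24 replication windows (41.7%), in 1 of 23 mitotic windows (4.35%) and in 2.26% of the 32851 windows of all promoters. The CHR motif (TTTGAA or TTCGAA) was present in 16 mitotic windows (69.6%), 4 replication windows (16.7%) and 19.2% of all windows. CCAAT was present in 78.3% of mitotic windows, 54.2% of replication windows and 37.4% of all windows. Both CHR and CCAAT lay in 15 mitotic windows (65.2%), against 7.52% of all windows. Matches of different motifs may share bases, 4 genes have several windows, which overlap only for Prc1, and a match is only a string of letters.

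**Figure D1:**
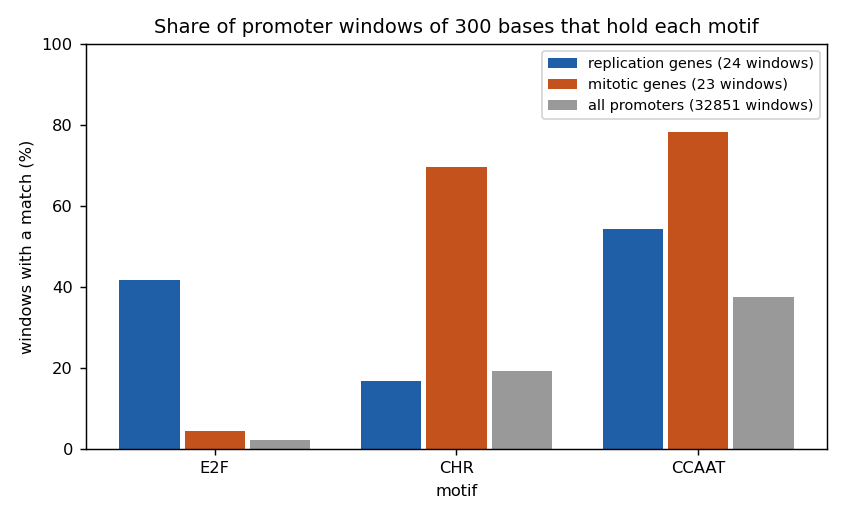
Bars give the percentage of promoter windows with at least 1 match to each motif (x axis) for replication genes, mitotic genes and all promoters. The E2F bar stands at 41.7% for replication genes and 4.35% for mitotic genes, and the CHR bar at 16.7% and 69.6%.

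The 150 bases before the start of 7 genes are shown because these genes carry the largest changes described below or show the motif arrangement of their list. Each runs 5′ to 3′ on the gene's own strand, and capitals mark E2F, CHR and CCAAT matches. Mcm6 lies at chr1:128359706-128359855 (minus strand), Orc1 at chr4:108579304-108579453 (plus), Tyms at chr5:30073626-30073775 (minus), Cdk1 at chr10:69352913-69353062 (minus), Kif11 at chr19:37376232-37376381 (plus), Cdc20 at chr4:118437344-118437493 (minus) and Aurka at chr2:172370571-172370720 (minus).
Mcm6: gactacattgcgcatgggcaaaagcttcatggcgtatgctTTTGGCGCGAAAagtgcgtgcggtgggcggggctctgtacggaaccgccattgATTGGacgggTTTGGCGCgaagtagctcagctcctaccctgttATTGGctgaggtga
Orc1: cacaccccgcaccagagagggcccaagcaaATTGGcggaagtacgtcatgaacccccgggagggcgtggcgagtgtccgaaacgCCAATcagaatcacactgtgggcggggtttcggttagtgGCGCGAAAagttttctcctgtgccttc
Tyms: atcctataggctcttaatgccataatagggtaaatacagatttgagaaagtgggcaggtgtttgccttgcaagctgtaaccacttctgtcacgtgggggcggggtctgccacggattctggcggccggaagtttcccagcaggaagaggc
Cdk1: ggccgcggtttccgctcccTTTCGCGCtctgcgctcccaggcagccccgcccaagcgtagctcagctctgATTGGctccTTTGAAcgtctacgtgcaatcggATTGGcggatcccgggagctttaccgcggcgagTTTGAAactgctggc
Kif11: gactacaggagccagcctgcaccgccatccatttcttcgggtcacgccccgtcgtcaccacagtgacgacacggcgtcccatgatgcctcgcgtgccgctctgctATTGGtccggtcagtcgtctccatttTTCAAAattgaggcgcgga
Cdc20: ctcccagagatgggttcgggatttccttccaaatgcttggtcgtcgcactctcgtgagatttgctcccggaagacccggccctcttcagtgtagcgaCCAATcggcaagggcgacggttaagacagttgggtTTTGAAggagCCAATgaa
Aurka: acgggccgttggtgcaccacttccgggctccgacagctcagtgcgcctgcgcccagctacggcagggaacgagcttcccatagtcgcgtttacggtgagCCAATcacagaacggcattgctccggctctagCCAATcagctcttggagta
In this stretch Mcm6 had 3 E2F matches, which overlap in part, and 2 CCAAT matches, and Orc1 had 1 and 2. Cdk1 had 1 E2F, 2 CHR and 2 CCAAT matches. Kif11 had 1 CHR and 1 CCAAT, and Cdc20 had 1 CHR and 2 CCAAT. Aurka had 2 CCAAT matches here, and its CHR match lay elsewhere in its window. Tyms had no match.

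Levels are background-corrected, quantile-normalised log2 intensities of the brightest probe of a gene that passed the detection filter, and levels of different genes are not comparable. Mean raw signal per array ran from 183.8 to 995 and the number of detected probes from 13191 to 16183. Arrays given Cripto or Nodal were brighter on average: the mean signal was 781 ± 102.8 (SD, n = 5) with Cripto and SB431542, 673.6 ± 223.5 (n = 5) with Nodal and 711.1 ± 269.4 (n = 5) with Cripto, against 462.3 ± 169 (n = 5) with SB431542 and 442.1 ± 150.7 (n = 5) in Media; Nodal with SB431542 stood at 529.4 ± 95.09 (n = 3). The groups were not spread alike over BeadChips. BeadChip 5 was dim, at 183.8 for Media, 340.6 for Nodal, 321.1 for Cripto and 195.9 for SB431542, and held no array of the other groups. The 13 listed markers of extraembryonic endoderm were all detected, 12 on every array. Of the markers of other cells, Nanog, Sox2, Eomes, Elf5 and Tfap2c and 7 of 9 fibroblast genes were detected on 0 arrays. Pou5f1, Dppa5a and Pdgfrb each had a probe detected on all 28. The trophoblast gene Cdx2 was detected on 10 arrays, the 5 of Cripto with SB431542 and the 5 of Cripto, at levels of 7.10 ± 0.35 and 6.34 ± 0.40 (SD, n = 5 each), against 4.74 ± 0.21 with SB431542 and 4.64 ± 0.11 in Media (n = 5 each), where it was not detected (limma adjusted p 1.05e-10 and 5.59e-09). Summed over 5 trophoblast markers, signal spanned 695.4 to 983.3 with Cripto and SB431542 and 486.3 to 981.7 with Cripto, against 402.9 to 708.1 with SB431542 and 398.7 to 667.3 in Media. The summed signal of the 5 pluripotency markers spanned 1046 to 2811 with Nodal and 801.6 to 2363 with Cripto, against 572.8 to 1341 in Media. Marker sums here are of raw signal. On normalised levels Pou5f1 was called lower with Nodal and Cripto against Media, at -0.75 and -0.77. The brightest Pou5f1 probe, used for these values, was detected on 4 Nodal, 4 Cripto and 5 Media arrays. Median centring gave -0.27 and -0.33, not called. Zfp42 was called higher in both, at 0.53 and 0.71. Dppa5a was called higher with Nodal, at 0.79, and not called with Cripto, at 0.13. Of the 13 endoderm markers, 2 were called higher and 6 lower with Nodal, 1 and 7 with Cripto, and 0 and 9 with Cripto under SB431542. Of all genes, 28.7% were higher and 28.9% lower with Nodal, 32% and 32.5% with Cripto, and 31.8% and 33.7% with Cripto under SB431542. Median centring gave 4 and 4, 5 and 4, and 2 and 6 markers, beside 50.6% and 11.7%, 50% and 15.5%, and 43.2% and 19.2% of all genes. Sox7, an endoderm transcription factor, fell by 0.87, 1.41 and 1.99 on the log2 scale in these comparisons. Median centring gave Sox7 -0.39, not called, -0.91 and -1.59. Other endoderm markers went the other way. Col4a2 was called higher, at 1.60 with Nodal and 0.83 with Cripto, and Sox17 with Nodal, at 0.25. The summed signal of the 13 spanned 187500 to 241600 with Cripto and SB431542, 108800 to 263500 with Nodal and 107900 to 293500 with Cripto, against 102300 to 291400 with SB431542 and 99280 to 257700 in Media. The part of these markers in the results was not tested. In RNA from whole cultures, a larger share of cycling cells and more RNA per cycling cell cannot be told apart.

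Nodal raised most of the mitotic genes and fewer of the replication genes. In a limma fit over all 28 arrays with the BeadChip as a term, where a gene is called at a Benjamini-Hochberg adjusted p under 0.05 over all 9951 genes tested, 14 of 19 mitotic genes rose and 0 fell against Media, where 28.7% of all genes rose and 28.9% fell. Among replication genes 9 of 23 rose and 2 fell. The median log2 change was 0.44 for mitotic genes, 0.11 for replication genes and 0.01 for all genes tested. When arrays were instead scaled only to a common median, the median change of all genes moved to 0.45, 50.6% of all genes rose and 11.7% fell, and the lists had 15 mitotic genes higher, 19 replication genes higher and 0 of either lower, with medians of 0.99 and 0.71. Within the 5 BeadChips that held both groups, the median ran from 0.34 to 0.74 for mitotic genes and from -0.02 to 0.23 for replication genes. With array brightness as a covariate the counts called were 9 and 5, and without a BeadChip term 6 replication genes were called. The share of all genes called was not computed on those settings, so it is unknown whether the members stand out there.

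Cripto raised genes of both lists. Against the same Media arrays, 14 of 23 replication genes rose and 2 fell, and 11 of 19 mitotic genes rose and 0 fell, where 32% of all genes rose and 32.5% fell (limma, adjusted as above). The median log2 change was 0.44 for replication genes and 0.55 for mitotic genes, against 0.01 for all genes. Median centring gave 18 and 16 genes higher and 0 lower, beside 50% of all genes higher and 15.5% lower. Within 4 BeadChips the medians ran from 0.35 to 0.51 for replication genes and 0.48 to 0.62 for mitotic genes. Arrays of the 2 groups did not overlap for 9 replication and 8 mitotic genes that were above Media, where 17.5% of all genes were, and were below Media for Cdt1 only, where 20.4% of all genes were. In Nodal 3 and 6 genes were above all Media arrays, where 11.4% of all genes were, and 0 were below, where 14.5% were.

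The Cripto changes were present with SB431542 in the medium, and the Nodal changes were not called there. Cripto with SB431542 against SB431542 raised 10 replication genes and lowered 3, and raised 11 mitotic genes and lowered 2, where 31.8% of all genes rose and 33.7% fell. The medians were 0.30 and 0.52, against -0.01 for all genes, and median centring gave 17 replication genes higher and 1 lower and 13 mitotic genes higher and 0 lower, beside 43.2% of all genes higher and 19.2% lower. All arrays with Cripto and SB431542 were above all SB431542 arrays for 8 replication and 10 mitotic genes, where 20.7% of all genes were, and below for 3 and 0, where 21.6% were. Nodal with SB431542 against the same SB431542 arrays called 0 of 23 replication and 0 of 19 mitotic genes by limma, where 3.68% of all genes were called. At an unadjusted p under 0.05 the counts were 5 and 3, and the authors' processed values called 1 replication gene. SB431542 against Media called 0 members by limma and 0% of all genes, with 1 replication and 1 mitotic gene at an unadjusted p under 0.05. For both comparisons, no share of all genes was computed at the unadjusted threshold or on the authors' values. The 3.68% and 0% belong to the adjusted threshold and cannot be set beside those counts.

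**Figure D2:**
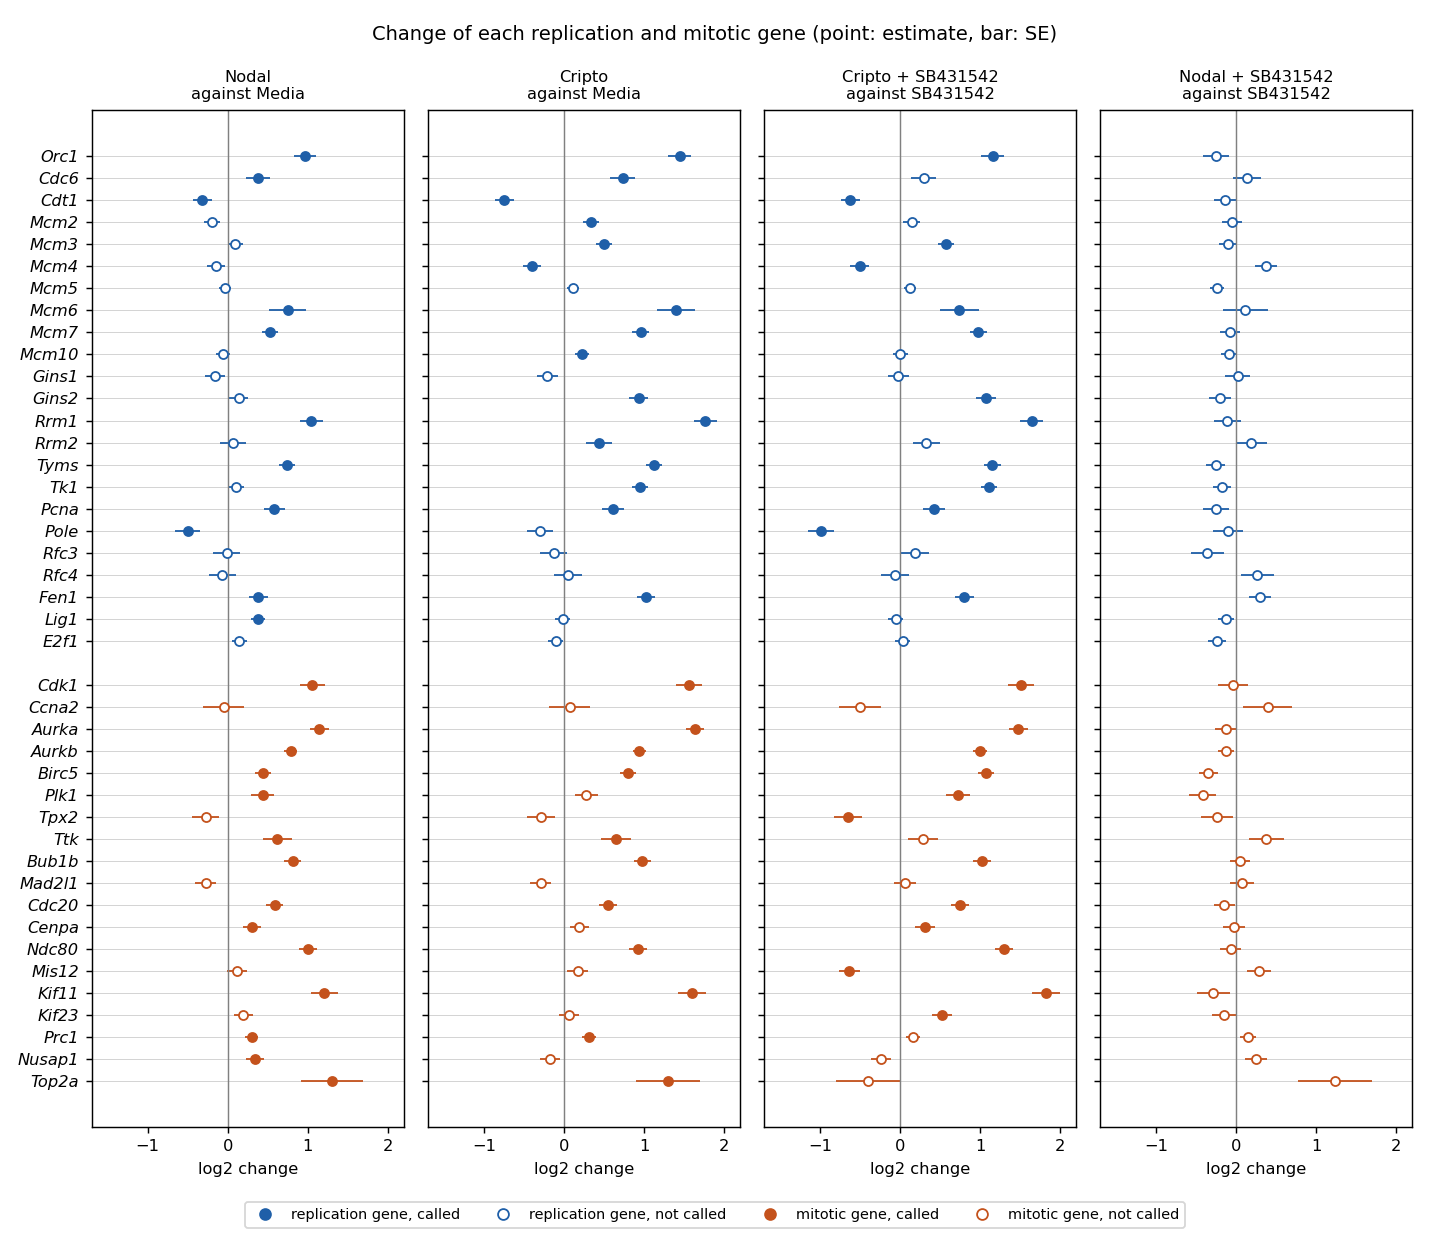
Points are log2 changes from the fit with SE bars for the 42 tested genes, ordered by role, and filled points are called. Both Cripto panels and the Nodal panel place Rrm1, Orc1, Cdk1, Aurka and Kif11 to the right of 0, Cdt1 lies to the left in these 3, and the panel of Nodal with SB431542 has no filled point.

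Whether the response to Nodal differed under SB431542 was tested directly. The interaction, the change by Nodal with the inhibitor minus the change without it, was negative for 7 replication genes and positive for 1, and negative for 9 mitotic genes and positive for 0, where 22.4% of all genes were negative and 21.5% positive. The 7 were Orc1 at -1.22 ± 0.22, Rrm1 at -1.16 ± 0.22, Tyms at -1.0 ± 0.15, Pcna, Mcm7, Lig1 and E2f1. E2f1 was not called with Nodal against Media, at 0.14. The 9 were Kif11 at -1.49 ± 0.27, Aurka at -1.27 ± 0.18, Cdk1 at -1.10 ± 0.24, Ndc80, Aurkb, Plk1, Birc5, Bub1b and Cdc20. Mcm4 was the positive one at 0.51 ± 0.18, and median centring gave it 0.10. Without a BeadChip term the Nodal interaction called 3 replication genes, and on BeadChips 1 to 4 alone 4, all negative. For Cripto the interaction was called for Mis12 only, at -0.80 ± 0.19 (adjusted p 0.0493), where 0.653% of all genes were called; no other setting but brightness as a covariate kept that call among those tried on all arrays. No replication gene was called in the Cripto interaction, with 1 at an unadjusted p under 0.05 and a smallest adjusted p of 0.16. That unadjusted count again has no share of all genes beside it.

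**Figure D3:**
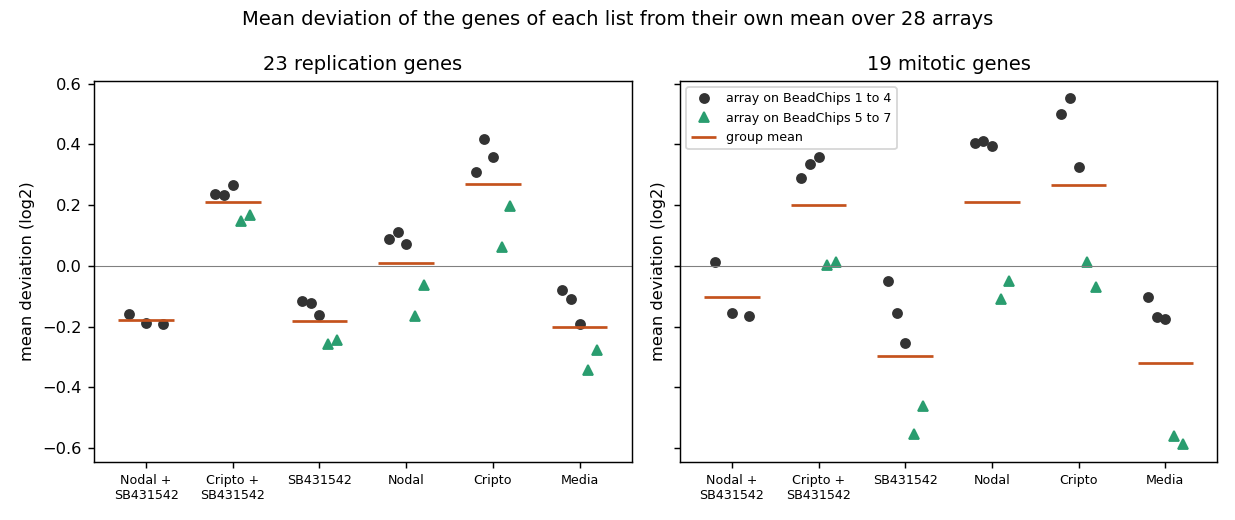
Each point is the mean, over the tested genes of a list, of the array's log2 level minus the gene's mean over 28 arrays; bars are group means. Arrays with Cripto, with or without SB431542, lie higher than SB431542 and Media arrays on the same set of BeadChips in both panels, and Nodal with SB431542 lies between -0.19 and 0.01.

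An F test over the 6 groups, adjusted over all genes in the same way, called 17 of 23 replication and 17 of 19 mitotic genes, where 80.5% of all genes were called.

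Licensing genes moved in opposite directions. Orc1, the large subunit of the origin recognition complex, stood at 9.02, 8.81, 8.72, 8.35 and 8.55 with Cripto and SB431542, against 7.70, 7.79, 7.42, 7.05 and 7.27 with SB431542. Without inhibitor it stood at 8.27, 8.39, 8.39, 7.98 and 7.78 with Nodal and 8.97, 8.96, 9.06, 7.72 and 8.45 with Cripto, against 7.56, 7.76, 7.12, 6.39 and 7.13 in Media. Nodal arrays were all above Media arrays, and 1 Cripto array, the fourth, fell just under the highest Media array. The log2 change was 0.97 ± 0.14 (SE) with Nodal, 1.44 ± 0.14 with Cripto and 1.16 ± 0.15 with Cripto under SB431542 (adjusted p 5.13e-06, 1.96e-08 and 6.69e-07). A dimmer Orc1 probe, detected on 9 arrays, gave 0.095 with Nodal and -0.19 with Cripto under SB431542, neither called, and 0.78 with Cripto, called.

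Cdt1, the loader of Mcm2-7 that the cell destroys in S phase, was lower where Orc1 was higher. It stood at 12.37, 12.14, 11.99, 12.07 and 12.06 with Cripto and SB431542, against 12.82, 12.89, 12.80, 12.60 and 12.74 with SB431542. It stood at 13.03, 12.26, 12.27, 12.08 and 12.30 with Nodal and 12.30, 11.82, 12.04, 11.73 and 11.82 with Cripto, against 12.73, 12.78, 12.77, 12.59 and 12.63 in Media. Every Cripto array was below every control array of its pair, whereas Nodal replicate 1 was above all Media arrays and the other 4 below. The changes were -0.32 ± 0.11 with Nodal (adjusted p 0.0227), -0.75 ± 0.12 with Cripto (1.18e-05) and -0.62 ± 0.12 with Cripto under SB431542 (0.00013); with median centring they were 0.17, -0.23 and -0.23, none called. The Nodal call was lost in 5 of the fits without 1 array, those without Nodal replicates 2, 3 or 4 or Media replicates 2 or 4.

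Cdc6, which loads the helicase with Cdt1, rose by 0.38 ± 0.15 with Nodal and 0.73 ± 0.15 with Cripto, and its change of 0.30 ± 0.15 with Cripto under SB431542 was not called (adjusted p 0.0343, 0.000257 and 0.0996). Its Nodal call was lost without Nodal replicates 1 or 2 or Media replicates 1, 3 or 4. The 6 subunits of the helicase did not move as a unit. Mcm6 stood at 10.35, 11.98, 11.82, 11.79 and 11.89 with Cripto and SB431542, against 10.90, 10.56, 10.66, 10.82 and 11.05 with SB431542. It stood at 10.81, 11.94, 11.81, 11.55 and 11.80 with Nodal and 11.99, 12.43, 12.17, 12.21 and 12.31 with Cripto, against 10.80, 10.81, 10.77, 10.85 and 10.93 in Media. Replicate 1 of Cripto with SB431542 lay below every SB431542 array and replicate 1 of Nodal within the Media range, while the other 4 arrays of each were above their controls. The changes were 0.75 ± 0.23, 1.40 ± 0.24 and 0.74 ± 0.25 with Nodal, Cripto and Cripto under SB431542 (adjusted p 0.00957, 3.32e-05 and 0.0122). The last was not called without replicate 2 or 3 of Cripto with SB431542. Another Mcm6 probe, detected on all 28 arrays, gave 0.55, 0.97 and 0.45 in the same order, called with Cripto only. A dimmer probe detected on 18 arrays gave 0.44, 1.09 and -0.25, called with Cripto only. The probe detected on 20 arrays gave 0.90, 0.81 and 1.08, all called.

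Mcm7 rose by 0.53 ± 0.10, 0.96 ± 0.11 and 0.98 ± 0.11 in the same 3 comparisons. Mcm3 rose by 0.50 ± 0.10 with Cripto and 0.57 ± 0.10 with Cripto under SB431542, and Mcm2 by 0.34 ± 0.10 with Cripto. The brightest Mcm4 probe gave 12.90, 12.96, 13.02, 13.20 and 13.29 with Cripto and SB431542, against 13.40, 13.33, 13.40, 13.65 and 13.93 with SB431542. It gave 12.97, 13.47, 12.82, 13.05 and 13.01 with Cripto, against 13.35, 13.40, 13.27, 13.45 and 13.80 in Media. Under the inhibitor all Cripto arrays were lower, and without it Cripto replicate 2 stood among the Media arrays. The changes of -0.51 ± 0.12 and -0.40 ± 0.11 were called (adjusted p 0.000835 and 0.00492), but median centring gave -0.12 and 0.12, not called. The other Mcm4 probes, detected on 15 and 14 arrays, pointed the other way, at 2.16 and 1.88 with Cripto and 1.85 and 1.25 with Nodal, so the direction of Mcm4 depends on the probe. Mcm5 was called in none of the 3 comparisons. Mcm10, which helps to activate the helicase, was called with Cripto at 0.22 ± 0.09, and that call was lost in 6 fits without 1 array (Media replicate 1, 3 or 5, Cripto replicate 3, 4 or 5). The other Mcm10 probe, also detected on all 28 arrays, rose by 0.30 ± 0.12 with Nodal, 1.03 ± 0.12 with Cripto and 0.73 ± 0.12 with Cripto under SB431542.

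Among GINS subunits, which join the loaded helicase, Gins2 responded to Cripto and Gins1 was not called. Gins2 stood at 10.84, 10.40, 10.50, 10.73 and 10.85 with Cripto and SB431542, against 9.51, 9.67, 9.42, 9.74 and 9.41 with SB431542. It stood at 9.40, 9.79, 9.74, 9.81 and 10.09 with Nodal and 10.29, 10.46, 10.48, 10.67 and 10.78 with Cripto, against 9.75, 9.71, 9.59, 9.69 and 9.40 in Media. All Cripto arrays were above their controls, and Nodal and Media arrays overlapped. Gins2 rose by 0.93 ± 0.12 with Cripto and 1.07 ± 0.12 with Cripto under SB431542 (adjusted p 1.04e-06 and 2.23e-07), and its 0.14 ± 0.12 with Nodal was not called, while another Gins2 probe was called with Nodal at 0.44 ± 0.11.

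Deoxynucleotide supply gave the largest replication change. Rrm1, the large subunit of ribonucleotide reductase, stood at 11.44, 11.21, 11.26, 11.52 and 11.45 with Cripto and SB431542, against 9.65, 9.57, 9.54, 9.85 and 9.75 with SB431542. It stood at 9.85, 10.94, 10.83, 10.92 and 10.80 with Nodal and 11.07, 11.37, 11.34, 11.57 and 11.65 with Cripto, against 9.75, 9.61, 9.30, 9.72 and 9.72 in Media. Nodal with SB431542 gave 9.53, 9.29 and 9.53. Cripto arrays were all above Nodal arrays, and Nodal arrays above Media arrays, with Nodal replicate 1 only just so. Rrm1 rose 3.41-fold with Cripto (log2 1.77 ± 0.14, adjusted p 1.08e-09), 3.12-fold with Cripto under SB431542 (1.64 ± 0.15, 4.98e-09) and 2.06-fold with Nodal (1.05 ± 0.14, 2.07e-06). Rrm2, the small subunit, was called with Cripto alone, at 0.44 ± 0.16, and lost that call without Media replicates 1 or 2 or Cripto replicates 3, 4 or 5.

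Tyms, which makes thymidylate, stood at 11.40, 11.19, 11.18, 11.18 and 11.22 with Cripto and SB431542, against 9.98, 10.12, 10.14, 10.39 and 9.96 with SB431542. It stood at 10.70, 10.60, 10.74, 10.97 and 10.67 with Nodal and 10.77, 11.04, 11.29, 11.34 and 11.24 with Cripto, against 9.91, 10.13, 10.01, 10.27 and 9.65 in Media. No treated array overlapped its controls, and the rises were 0.74 ± 0.10, 1.13 ± 0.10 and 1.15 ± 0.10 with Nodal, Cripto and Cripto under SB431542. Tk1, which salvages thymidine, stood at 11.70, 11.34, 11.65, 11.74 and 11.53 with Cripto and SB431542, against 10.25, 10.24, 10.67, 10.68 and 10.43 with SB431542. It stood at 10.51, 10.66, 10.67, 10.67 and 10.76 with Nodal and 11.15, 11.45, 11.51, 11.84 and 11.77 with Cripto, against 10.60, 10.43, 10.36, 10.72 and 10.63 in Media. All Cripto arrays were above and the Nodal arrays lay within or next to the Media range, with rises of 0.95 ± 0.10 and 1.11 ± 0.10 for Cripto without and with SB431542 and 0.11 ± 0.09, not called, for Nodal.

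At the fork, Fen1, the nuclease that trims Okazaki fragments, stood at 11.98, 11.66, 11.78, 11.99 and 11.98 with Cripto and SB431542, against 10.73, 10.89, 10.84, 11.08 and 11.35 with SB431542. It stood at 10.64, 11.44, 11.36, 11.56 and 11.68 with Nodal and 11.69, 12.11, 12.07, 12.14 and 11.93 with Cripto, against 10.74, 10.83, 10.70, 11.08 and 11.39 in Media. Cripto arrays were above their controls and Nodal arrays overlapped Media. Fen1 rose by 0.80 ± 0.12, 0.38 ± 0.11 and 1.03 ± 0.12 with Cripto under SB431542, Nodal and Cripto. Lig1, the ligase that seals those fragments, rose by 0.38 ± 0.09 with Nodal, and its brightest probe gave -0.02 and -0.06 with Cripto without and with SB431542, not called. Another Lig1 probe detected on all 28 arrays gave 0.91 ± 0.12 with Nodal, 0.98 ± 0.13 with Cripto and 1.39 ± 0.13 with Cripto under SB431542, all called, so the response of Lig1 to Cripto depends on the probe.

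Pole, the catalytic subunit of the leading-strand polymerase, stood at 7.41, 8.67, 8.38, 8.0 and 8.0 with Cripto and SB431542, against 9.36, 9.29, 9.17, 8.70 and 9.06 with SB431542. It stood at 9.21, 8.89, 8.60, 8.11 and 8.28 with Nodal, against 9.58, 9.28, 9.11, 8.70 and 8.93 in Media. Arrays with Cripto and SB431542 were all below their controls and Nodal arrays were below Media on each of 5 shared BeadChips. Pole fell by 0.98 on the log2 scale with Cripto under SB431542 (SE 0.16, adjusted p 2.56e-05) and by 0.50 with Nodal (SE 0.16, adjusted p 0.00955). Median centring gave -0.56, still called, and 0.09, not called. With Cripto alone it was -0.30 ± 0.16, not called, and Cripto with SB431542 was lower than Cripto by 0.78 ± 0.17 (adjusted p 0.00702). The clamp loader genes Rfc3 and Rfc4 and the factor gene E2f1 were called in none of the 3 comparisons with Media or SB431542.

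**Figure D4:**
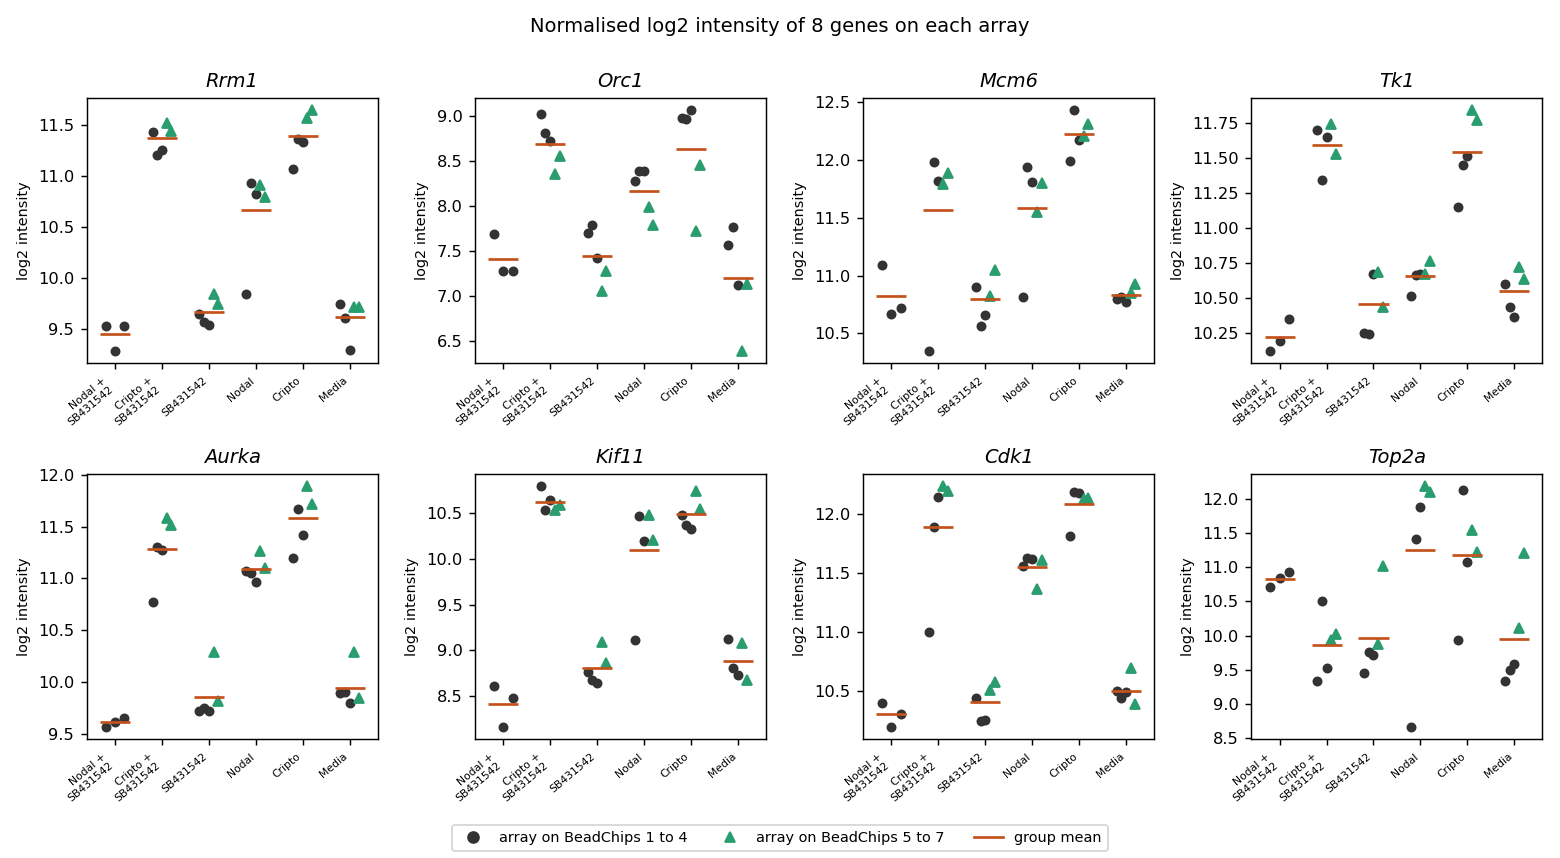
Normalised log2 intensity of 8 genes (y axis) on each array by group, with circles for BeadChips 1 to 4, triangles for BeadChips 5 to 7 and bars for group means. Rrm1 places Cripto arrays at 11.07 to 11.65 and Media arrays at 9.30 to 9.75, Tk1 places Nodal arrays at 10.51 to 10.76 beside Media, and Top2a has 1 Nodal array at 8.67.

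Among mitotic kinases, Cdk1, the master kinase of entry into mitosis, stood at 11, 11.89, 12.15, 12.24 and 12.20 with Cripto and SB431542, against 10.44, 10.25, 10.26, 10.51 and 10.58 with SB431542. It stood at 11.56, 11.63, 11.62, 11.37 and 11.61 with Nodal and 11.82, 12.19, 12.18, 12.13 and 12.14 with Cripto, against 10.50, 10.44, 10.49, 10.70 and 10.39 in Media. Nodal with SB431542 gave 10.40, 10.20 and 10.31. No array treated with Nodal alone or with Cripto overlapped its controls. Cdk1 rose 2.08-fold with Nodal (log2 1.06 ± 0.15), 2.96-fold with Cripto (1.56 ± 0.16) and 2.86-fold with Cripto under SB431542 (1.51 ± 0.16), with adjusted p of 7.38e-06, 3.32e-08 and 7.77e-08.

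Aurka, the spindle pole kinase, stood at 10.77, 11.30, 11.27, 11.58 and 11.52 with Cripto and SB431542, against 9.72, 9.75, 9.72, 10.29 and 9.82 with SB431542. It stood at 11.07, 11.05, 10.97, 11.26 and 11.10 with Nodal and 11.20, 11.67, 11.42, 11.89 and 11.72 with Cripto, against 9.89, 9.90, 9.80, 10.29 and 9.85 in Media. The groups did not overlap, and the rises were 1.48 ± 0.12, 1.15 ± 0.11 and 1.64 ± 0.12 with Cripto under SB431542, Nodal and Cripto. Aurkb and Birc5, partners in the chromosomal passenger complex, rose too, Aurkb by 0.79 ± 0.08 with Nodal and 0.94 ± 0.08 with Cripto. Plk1, the Polo kinase, rose by 0.43 ± 0.14 with Nodal and 0.72 ± 0.15 with Cripto under SB431542, and was not called at 0.28 ± 0.14 with Cripto alone, where the call appeared without Cripto replicate 2.

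Tpx2, which activates Aurora A on the spindle, went against its list. It stood at 9.56, 10.22, 10.34, 9.03 and 9.0 with Cripto and SB431542, against 10.81, 10.77, 10.78, 9.60 and 9.63 with SB431542. The groups overlapped over all arrays, and both were lower on BeadChips 5 to 7. Tpx2 was lower on each of the 3 shared BeadChips. It fell by 0.65 on the log2 scale (SE 0.18, adjusted p 0.00284), and median centring gave -0.20, not called.

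Of checkpoint genes, Bub1b rose by 0.81 ± 0.11, 0.98 ± 0.11 and 1.02 ± 0.11 with Nodal, Cripto and Cripto under SB431542, and Cdc20, the anaphase activator that the checkpoint holds back, by 0.59 ± 0.11, 0.55 ± 0.11 and 0.75 ± 0.11. Mad2l1, another checkpoint protein, was called in none of the 3 and stood at -0.28 ± 0.13 with Nodal; without Nodal replicate 1 it was called at -0.43. Among kinetochore genes, Ndc80, which binds microtubules, stood at 9.88, 9.79, 9.98, 10.08 and 10.08 with Cripto and SB431542, against 8.52, 8.73, 8.46, 8.72 and 8.89 with SB431542. It stood at 9.30, 9.79, 9.61, 9.98 and 9.98 with Nodal and 9.53, 9.5, 9.85, 9.69 and 9.77 with Cripto, against 8.60, 8.45, 8.60, 9.17 and 8.81 in Media. All treated arrays were above their controls, with rises of 1.0 ± 0.11, 0.93 ± 0.11 and 1.29 ± 0.11 with Nodal, Cripto and Cripto under SB431542. Cenpa, the centromeric histone, was called at 0.30 ± 0.12 with Nodal, a call lost without Nodal replicates 1 or 5 or Media replicates 1 or 3. Another probe of the gene was called lower, at -0.63 ± 0.17 with Nodal and -0.58 ± 0.18 with Cripto. With Cripto the first probe gave 0.19, not called.

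Spindle motors and chromosome structure completed the list. Kif11, the motor that pushes spindle poles apart, stood at 10.79, 10.53, 10.64, 10.53 and 10.58 with Cripto and SB431542, against 8.76, 8.68, 8.65, 9.09 and 8.86 with SB431542. It stood at 9.11, 10.47, 10.19, 10.48 and 10.20 with Nodal and 10.48, 10.37, 10.32, 10.74 and 10.54 with Cripto, against 9.12, 8.81, 8.73, 9.08 and 8.68 in Media. Nodal replicate 1 was within the Media range and the other arrays with Nodal or Cripto were above their controls. Kif11 rose 3.54-fold with Cripto under SB431542 (log2 1.82 ± 0.18, adjusted p 2.3e-08), 2.31-fold with Nodal (1.21 ± 0.17, 4.83e-06) and 3.03-fold with Cripto (1.60 ± 0.18, 1.02e-07). Prc1, which bundles the midzone, rose by 0.30 ± 0.08 with Nodal and 0.31 ± 0.08 with Cripto, and its change of 0.17 ± 0.09 with Cripto under SB431542 was not called. The brightest probe of Kif23, a motor of the midzone, was called with Cripto under SB431542 at 0.52 ± 0.13 and in neither comparison with Media. Both other Kif23 probes detected on all 28 arrays were called higher against Media, at 0.23 and 0.73 with Nodal and 0.32 and 1.16 with Cripto. With Cripto under SB431542 they gave -0.03, not called, and 0.62, called.

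Top2a, the topoisomerase that untangles sister chromatids, followed a pattern of its own. It stood at 10.71, 10.84 and 10.92 with Nodal and SB431542, and at 9.33, 10.50, 9.52, 9.93 and 10.02 with Cripto and SB431542, against 9.45, 9.76, 9.71, 9.88 and 11.02 with SB431542. It stood at 8.67, 11.41, 11.87, 12.18 and 12.09 with Nodal and 9.94, 12.13, 11.07, 11.54 and 11.22 with Cripto, against 9.33, 9.49, 9.59, 10.11 and 11.20 in Media. Replicate 1 of Nodal was the lowest of all 28 arrays and the other Nodal arrays were above every Media array. Top2a rose by 1.30 ± 0.39 with Nodal and 1.30 ± 0.40 with Cripto (adjusted p 0.0072 and 0.00718), and the Nodal value was 1.77 without Nodal replicate 1. Its rise with Cripto was not called under SB431542, at -0.40 ± 0.41 against SB431542 and -1.64 ± 0.41 against Cripto (adjusted p 0.403 and 0.0181), while Nodal with SB431542 gave 1.23 ± 0.47 against SB431542 (0.14). Prc1 and Ttk, which rose with Cripto, were not called under SB431542 either, at 0.17 ± 0.09 and 0.28 ± 0.19. Its Cripto interaction of -1.7 ± 0.57 was not called (0.16). Another, dimmer Top2a probe detected on 25 arrays gave -0.74 with Nodal, called lower, and -0.47 with Cripto, not called. The direction of Top2a therefore depends on the probe.

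Nodal and Cripto alone were compared directly, at their own doses of 50 and 100 ng/ml, and the doses differ. Replication genes were lower with Nodal: 10 of 23 were called lower and 2 higher, where 11.4% of all genes were lower and 13.6% higher, and the median difference was -0.36 against 0.01 for all genes. Mitotic genes had 3 called lower and 1 higher, with a median of -0.01. Tk1 (-0.85 ± 0.10), Gins2 (-0.80 ± 0.12), Rrm1 (-0.72 ± 0.14) and Fen1 (-0.64 ± 0.12) differed most among the called genes, and the values given above did not overlap between Nodal and Cripto for any of these 4. Mcm6, at -0.65 ± 0.24, was not called (adjusted p 0.0521). Nodal arrays were below all Cripto arrays for 6 replication genes and 1 mitotic gene, where 3.18% of all genes were, and above for 1 and 0, where 4.07% were. Cdt1 (0.43 ± 0.12) and Lig1 (0.40 ± 0.09) were higher with Nodal. No other Lig1 probe was called, at 0.15, -0.07 and -0.09. Median centring left 5 replication genes, all lower with Nodal, Tk1, Gins2, Rrm1, Fen1 and Mcm2, and chips 1 to 4 or 5 to 7 alone called 5 each.

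The mitotic genes called between Nodal and Cripto were Cdk1 (-0.51 ± 0.16), Aurka (-0.49 ± 0.12), Birc5 (-0.36 ± 0.10) and Nusap1 (0.52 ± 0.12). Birc5, a subunit of the passenger complex, stood at 11.96, 11.85, 12, 12.30 and 12.08 with Nodal, against 12.31, 12.24, 12.32, 12.72 and 12.52 with Cripto, with overlap. Nusap1, a protein that bundles spindle microtubules, stood at 10.96, 10.78, 10.60, 10.40 and 10.31 with Nodal, against 10.28, 10.60, 10.22, 9.79 and 9.73 with Cripto, and was higher with Nodal on all 4 shared BeadChips. The Cdk1 call was lost without Cripto replicate 2 or Nodal replicates 4 or 5, and the Birc5 call without Cripto replicate 5. With median centring only Aurka was called, at -0.52. Another probe of Cdc20 and another of Bub1b were called lower with Nodal, at -0.51 ± 0.13 and -0.52 ± 0.15, where the brightest were not called. The remaining Cdc20 probes gave -0.19 and -0.07, not called. Both other Birc5 probes, detected on all 28 arrays, gave -0.11 and -0.25, not called, so the Birc5 call depends on the probe. The other Nusap1 probe, detected on 14 arrays, gave 0.06, not called. Under the inhibitor, Nodal against Cripto gave 12 replication genes lower and 3 higher and 11 mitotic genes lower and 4 higher, where 32.5% of all genes were lower and 31.7% higher.

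SB431542 added to Nodal lowered 10 replication genes and raised 1, and lowered 9 mitotic genes and raised 1, where 27.6% of all genes fell and 26% rose. Kif11 was lower by 1.53 ± 0.21, Aurka by 1.36 ± 0.14, Cdk1 by 1.29 ± 0.19 and Rrm1 by 1.05 ± 0.17 on the log2 scale. With array brightness as a covariate 7 replication genes were called, and 7 without Nodal replicate 3 or without replicate 3 of Nodal with SB431542. SB431542 added to Cripto called Pole, lower, Kif23, higher at 0.45 ± 0.13, and Top2a, lower, where 4.22% of all genes rose and 4.38% fell.

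Some probes differed far more between sets of BeadChips than between treatments. Replicates 1 to 3 of every group were on BeadChips 1 to 4 and replicates 4 and 5 on BeadChips 5 to 7. Ccna2, the cyclin of S phase and early mitosis, spanned 4.66 to 6.37 on BeadChips 5 to 7 and 8.76 to 11.24 on BeadChips 1 to 4 in the 5 groups that lay on both, a mean difference of -4.59 over those groups. Pcna, the sliding clamp of the fork, spanned 6.26 to 8.28 and 10.62 to 11.90, a difference of -3.74. Ttk, a checkpoint kinase, differed by -2.26 and Mis12, a kinetochore subunit, by -1.79. Neither set overlapped the other for Ccna2, Pcna, Ttk or Mis12. Of all genes tested, 3.12% were lower by over 2 log2 units on BeadChips 5 to 7 and 0% higher; among members this held for 1 of 23 replication and 2 of 19 mitotic genes. What distinguishes the sets was not tested.

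**Figure D5:**
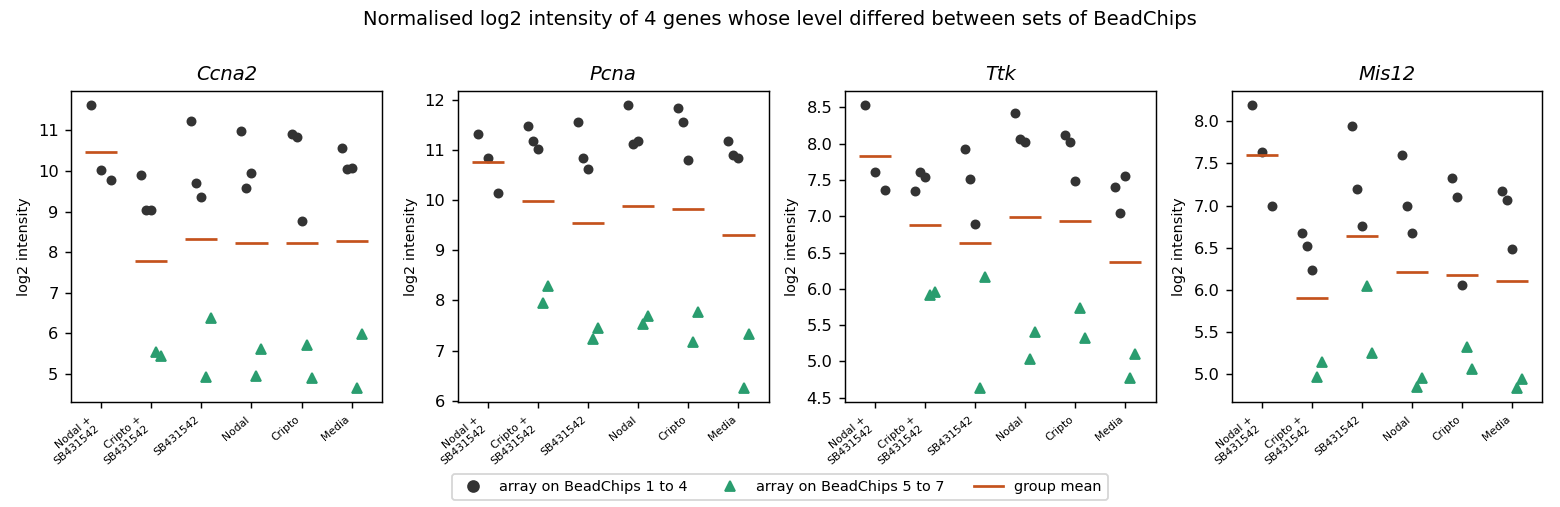
Normalised log2 intensity of Ccna2, Pcna, Ttk and Mis12 (y axis) on each array by group, with circles for BeadChips 1 to 4, triangles for BeadChips 5 to 7 and bars for group means. Triangles lie below circles in every group that has both, by 4.59 log2 units on average for Ccna2.

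Within the BeadChip sets Pcna stood at 11.48, 11.19 and 11.02 and then 7.95 and 8.28 with Cripto and SB431542, against 11.57, 10.85 and 10.62 and then 7.23 and 7.46 with SB431542. It stood at 11.90, 11.13 and 11.18 and then 7.53 and 7.69 with Nodal and 11.84, 11.57 and 10.80 and then 7.18 and 7.77 with Cripto, against 11.18, 10.90 and 10.85 and then 6.26 and 7.34 in Media. With the BeadChip in the fit Pcna rose by 0.58 ± 0.13 with Nodal and 0.61 ± 0.14 with Cripto (adjusted p 0.000823 and 0.000513), and by 0.42 ± 0.14 with Cripto under SB431542 (0.0113), a call lost without replicate 5 of SB431542 or of Cripto with SB431542. Ttk rose by 0.62 ± 0.18 with Nodal and 0.65 ± 0.19 with Cripto. Ccna2 was called in none of the 3 comparisons.

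Mis12 stood at 6.68, 6.52 and 6.23 and then 4.96 and 5.14 with Cripto and SB431542, against 7.95, 7.20 and 6.76 and then 6.04 and 5.25 with SB431542. The groups overlapped, and Mis12 was lower on each of 3 shared BeadChips. It fell by 0.63 on the log2 scale (SE 0.13, adjusted p 0.000315), which median centring gave as -0.31, not called. SB431542 against Media gave Mis12 0.73 ± 0.14, not called (adjusted p 0.295). Mis12 was detected on 18 arrays, Ttk on 19 and Ccna2 on 20, and the lowest level of a detected probe was between 5.55 and 6.34 on the arrays. All other tested members were detected on all 28.

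Where a gene had several probes past the filter, 21 genes in all, every probe had the same sign in 15 genes with Nodal, 16 with Cripto and 13 with Cripto under SB431542, and opposite probes were both called in 2, 1 and 1 genes. A dimmer probe of Cdc20, at a mean level of 8.50, gave 1.84 with Nodal and 1.91 with Cripto, beside 0.59 and 0.55 of the probe used. A dimmer Mcm7 probe gave 2.13 and 2.34, beside 0.53 and 0.96. The 2 Rrm1 probes gave 1.05 and 0.76 with Nodal and 1.77 and 1.30 with Cripto, and the 2 Bub1b probes 0.81 and 0.71 with Nodal.

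Motif groups were set beside the changes as a description. The 12 tested mitotic genes with a CHR match had a median change of 0.71 with Nodal, 0.79 with Cripto and 0.73 with Cripto under SB431542, with 11, 9 and 9 called higher and 0 lower, where 28.7%, 32% and 31.8% of all genes rose. The 4 without one, Mad2l1, Birc5, Nusap1 and Mis12, had medians of 0.23, 0.00 and -0.09, with 2, 1 and 1 called higher and 0, 0 and 1 lower. The 9 tested replication genes with an E2F match had medians of 0.38, 0.50 and 0.30, with 5, 5 and 4 called higher and 1, 1 and 1 lower. The 10 without one had medians of 0.12, 0.52 and 0.37, with 4, 8 and 5 called higher and 0 lower. Rrm1, which had the largest replication change, and Tyms and Tk1 have no E2F match in their windows.

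Other replication genes, from a list of 56 of which 48 were tested, moved both ways. With Nodal 13 rose and 11 fell, with Cripto 18 rose and 7 fell, and with Cripto under SB431542 19 rose and 11 fell. Of all genes, 28.7% rose and 28.9% fell with Nodal, 32% and 32.5% with Cripto, and 31.8% and 33.7% with Cripto under SB431542, so the Nodal shares of this list, 27.1% and 22.9%, lay below both. Ccne1, the cyclin that starts S phase, rose by 2.02 ± 0.17 with Cripto, 2.17 ± 0.17 with Cripto under SB431542 and 0.83 ± 0.16 with Nodal, and was lower with Nodal than with Cripto by 1.19 ± 0.17. Rfc5, of the clamp loader, and Rpa1, which coats single-stranded DNA, rose with Nodal by 0.85 ± 0.11 and 0.84 ± 0.14 and with Cripto by 1.08 ± 0.11 and 1.18 ± 0.15. Rpa2 and Pola2 rose with Cripto under SB431542 by 1.07 ± 0.13 and 0.92 ± 0.10. Gins3 fell by 1.05 on the log2 scale with Nodal and 0.93 with Cripto, and Pole4, an accessory subunit of the leading-strand polymerase, by 1.04, 1.15 and 0.91 in the 3 comparisons. Tipin fell by 0.85 with Nodal and its partner Timeless by 1.07 with Cripto, both of the fork protection complex. Rpa3 and Prim1 fell by 1.11 and 1.06 with Cripto under SB431542. These falls kept their sign with median centring.

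Other mitotic genes, from a list of 83 of which 74 were tested, had 27 higher and 8 lower with Nodal, 31 and 8 with Cripto, and 26 and 12 with Cripto under SB431542. The higher genes were 36.5%, 41.9% and 35.1% of the list, beside 28.7%, 32% and 31.8% of all genes, and 28.9%, 32.5% and 33.7% of all genes fell. Melk, a kinase that peaks in mitosis, rose by 1.87 ± 0.21 with Nodal and 1.95 ± 0.21 with Cripto. Sgo2a, a protector of cohesion, and Kifc1, a minus-end motor, rose with Nodal by 1.41 ± 0.31 and 1.0 ± 0.10. Cdc25a, the phosphatase that activates cyclin-dependent kinases, and Ect2, an exchange factor of cytokinesis, rose with Cripto by 1.34 ± 0.14 and 1.31 ± 0.36. Among genes detected on most arrays of both groups, the largest rises with Cripto under SB431542 were Ckap2 (1.55 ± 0.10), Kif2c (1.43 ± 0.12) and Kifc1 (1.41 ± 0.10). Ncaph2, a condensin II subunit, fell by 0.92, 1.64 and 1.70 in the 3 comparisons, and Pkmyt1, a kinase that restrains Cdk1, by 0.96, 1.11 and 1.15. Fam83d fell by 1.14 with Nodal, Troap by 0.83 with Cripto and Cep55, which acts in the final cut between daughter cells, by 1.42 with Cripto under SB431542, all with the same sign under median centring.

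The E2F, Myb and pocket protein genes, 20 listed and 15 tested, had 5 higher and 3 lower with Nodal, 4 and 4 with Cripto, and 2 and 4 with Cripto under SB431542, shares of 33.3% and 20%, 26.7% and 26.7%, and 13.3% and 26.7%. None of these exceeded the share of all genes in the same direction, other than the 33.3% higher with Nodal, beside 28.7%. E2f5 rose by 0.68 ± 0.09, 0.58 ± 0.10 and 0.92 ± 0.10, and Tfdp2, a dimer partner of E2F, by 0.63 ± 0.13, 0.56 ± 0.13 and 0.80 ± 0.14. E2f2 fell by 1.24, 0.53 and 0.52 on the log2 scale, and median centring gave -0.79, still called, and -0.03 and -0.16, not called. Tfdp1 fell by 0.56, 0.27 and 0.40, but median centring gave 0.00, 0.33 and 0.04.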

How the data were processed

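Total RNA was extracted with TRIZOL and a MagMAX kit and 200 ng was amplified with an Illumina TotalPrep kit, per the labels' protocols, and hybridised to MouseWG-6 v2 BeadChips; each of the 28 arrays is 1 sample. The deposited per-array files hold unnormalised mean intensity per probe with its bead standard deviation, a detection p-value, and a count of beads (18 to 85 on probes of the genes examined, median 41), per the file headers. The submitters' processing notes name BeadStudio and lumi, and the deposited series table holds the authors' normalised log2 values, which were used only as an alternative.

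Groups came from the treatment labels and BeadChips from the sample titles. Replicate numbers used here follow the order in which the arrays of a group are listed and are not in the labels. Equal numbers in different groups therefore do not mark a pair. Intensities were corrected and quantile normalised with neqc of limma 3.58.1 in R 4.3.3 (offset 16, background from detection p-values). Probes with detection p under 0.01 on at least 3 arrays were kept (18471 of 45281), and each gene was represented by its probe with the highest mean (9951 genes). GEO's platform annotation gave 34885 probes 1 symbol, 18 several and 10378 none; probes with several were not named. A linear model with group and BeadChip as fixed terms was fitted to all arrays in 1 fit, with limma's moderated test, 11 contrasts and an F test over the 6 groups. The p-values were adjusted by Benjamini-Hochberg within each contrast over all genes. The procedure was tested on simulated data with known changes.

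The genes and the gene lists were chosen with earlier results of these data known. All 50 genes could be named. Values per array were given for the 4 genes of each list with the largest absolute change in the 3 main comparisons, for those called against most of their list, and for the 4 largest called between Nodal and Cripto. Of other lists the 3 largest called rises and falls were named. The number of arrays limits the precision. Alternatives were the background correction, offset, scaling, filter, probe choice, BeadChip term, test options, array brightness, sets of BeadChips, the authors' values, and leaving out each array or BeadChip 5. Promoter windows are RefSeq's on GRCm38.p6, searched with Python 3.11.15.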

Additional observations from a re-analysis of the deposited data

Results flagged for a closer look

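Values were examined in 220 sets, each of 1 gene or of the mean deviation of 1 list in 1 group. In 20 (9.09%), an array's gap to its nearest neighbour was large for the range by Dixon's criterion, where chance gives about 1 in 20. Nodal replicate 1 accounted for 7 of them. It was low for Mcm2 at 10.67 (the other 4 Nodal arrays at 11.31 to 11.55), Mcm5 at 12.34 (12.42 to 12.45), Rrm1 at 9.85 (10.80 to 10.94), Kif11 at 9.11 (10.19 to 10.48), Kif23 at 12.86 (13.55 to 13.70) and Top2a at 8.67 (11.41 to 12.18), and high for Cdt1 at 13.03 (12.08 to 12.30). Cripto with SB431542 replicate 1 accounted for 3, low for Mcm6 at 10.35 (11.79 to 11.98) and Cdk1 at 11 (11.89 to 12.24) and high for Tyms at 11.40 (11.18 to 11.22).

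The other 10 were spread over 8 arrays. Cripto replicate 1 was low for Cdk1 at 11.82 and Cripto replicate 2 for Plk1 at 10.72. Nodal replicate 4 was low for Cdk1 at 11.37. SB431542 replicate 2 was low for Bub1b at 9.94, replicate 4 low for Rfc4 at 9.60 and high for Aurka at 10.29, and replicate 5 high for Top2a at 11.02. Media replicate 3 was low for Mcm5 at 12.31, and Media replicate 4 was high for Mcm10 at 11.04 and Aurka at 10.29.

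The response to a protein differed with and without SB431542, by the interaction term of the limma fit, for 18 results. For Nodal the difference of log2 changes was -0.61 for Mcm7, -0.84 for Pcna, -1.16 for Rrm1, -1.0 for Tyms, -1.22 for Orc1, -0.51 for Lig1, -0.38 for E2f1 and 0.51 for Mcm4 among replication genes. Among mitotic genes it was -1.27 for Aurka, -0.91 for Aurkb, -1.10 for Cdk1, -0.85 for Plk1, -0.76 for Bub1b, -0.74 for Cdc20, -1.49 for Kif11, -0.79 for Birc5 and -1.07 for Ndc80. For Cripto it was -0.80 for Mis12.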

How the results depend on the processing

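Of 326 counts of called genes recomputed on other settings, 282 stayed within 1.5 times the count reported, and of 672 recomputed without 1 array, 633 did. Shares of all genes were computed only for the main fit and median centring. Counts on the other settings, here and above, therefore stand without such a share. Median centring called 19 replication genes in Nodal against Media, 5 replication and 1 mitotic gene in Nodal against Cripto and 1 mitotic gene in Cripto with SB431542 against Cripto. It turned the sign of 3 called changes, Cdt1 (0.17) and Pole (0.087) with Nodal and Mcm4 (0.12) with Cripto. Without a BeadChip term, Nodal against Media called 6 replication genes, the Nodal interaction 3, and Cripto with SB431542 against Cripto 0 of either list. BeadChips 1 to 4 alone called 6 replication genes in Nodal against Media, 4 in the Nodal interaction, 5 replication and 0 mitotic genes in Nodal against Cripto, and 0 in Cripto with SB431542 against Cripto. BeadChips 5 to 7 alone called 5 and 1 in Nodal against Cripto and 0 in Cripto with SB431542 against Cripto; they hold no array of Nodal with SB431542, so its comparisons could not be fitted there. With array brightness as a covariate, the counts were 5 replication and 9 mitotic genes in Nodal against Media, 7 replication genes in Nodal with SB431542 against Nodal and 1 mitotic gene in Cripto with SB431542 against Cripto. That last comparison also called 1 mitotic gene with no detection filter and without BeadChip 5, the dimmest, an alternative chosen after seeing the data, and 2 replication genes with no background correction, offset 50, a random BeadChip block or detection on all 28 arrays, and 3 with the authors' values. Without BeadChip 5, Nodal against Cripto called 2 mitotic genes. The authors' values called 1 replication gene in Nodal with SB431542 against SB431542. The single mitotic call of the Cripto interaction, Mis12, became 0 under every alternative setting but brightness, while fits without 1 array are given below. Detection on all 28 arrays left Mis12, detected on 18, out of the test.

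Leaving out 1 array gave 9 to 11 replication and 12 to 15 mitotic genes in Nodal against Media, 14 to 17 and 11 to 13 in Cripto against Media, 12 to 14 of each in Cripto with SB431542 against SB431542, and 10 to 15 and 3 to 4 in Nodal against Cripto. Nodal with SB431542 against SB431542 gave 0 to 1 replication genes, with 1 without Cripto replicate 2, and against Nodal 7 to 13, where the mitotic median moved to -0.61 without Nodal replicate 1 (-0.36 with it). Cripto with SB431542 against Cripto gave 1 to 3 replication and 0 to 3 mitotic genes, with 3 replication genes without Nodal replicate 1 or replicate 2 of Cripto with SB431542, and 0 mitotic genes without Cripto replicate 2 or 3 or replicate 1 or 4 of Cripto with SB431542. SB431542 against Media gave 0 to 1 mitotic genes, with 1 without replicate 5 of SB431542 or of Cripto with SB431542, and the Cripto interaction 0 to 1, with 0 in 23 of 28 fits. The causes were not tested. No paired analysis was possible because the labels give no replicate numbers to pair by, beyond the match of arrays by BeadChip, which was a term of the model. Dim probes limit what could be seen: 6 genes with probes were detected too seldom to be tested.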
